A study of Homo sapiens with 16 samples.

Results

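The transcripts described here are the background of the pulldown: those detected in every control immunoprecipitation (IP) with IgG, which has no specific target. A probe belongs to them if its detection p-value, which compares it with the negative control probes of its array, was under 0.01 on all 4 IgG IPs with control siRNA, and if the platform annotation gives it 1 gene. Ribosomal protein genes (RPL and RPS symbols), ZNF genes and 11 listed genes, such as ACTB, GAPDH and EEF1A1, were left out by name. Of 47231 probes, 225 were detected on those 4 arrays, 100 of them had 1 gene name, and 61 probes of 61 genes remained. The array annotates 20046 genes in this way. The members were thus selected on the detection p-values of the control-siRNA IgG IPs, and every comparison with that group is given as a description with no test.

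The cells were U2OS, a human osteosarcoma line, synchronized in the cell cycle, and the cell-cycle phase is not stated sample by sample. They were treated for 48 hours with an siRNA meant to deplete the long noncoding RNA MIR100HG or with a control siRNA, and RNA was recovered with an antibody to HuR or with IgG. There were 4 groups of 4 single-colour bead arrays, which the design text calls biological replicates: HuR IPs with MIR100HG siRNA, HuR IPs with control siRNA, IgG IPs with MIR100HG siRNA and IgG IPs with control siRNA. The treatment text spells the siRNA target mIR-110HG, exon 4, while the titles name MIR100HG.

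HuR, encoded by ELAVL1, is an RNA-binding protein that attaches to U-rich and AU-rich stretches, mostly in introns and 3′ untranslated regions, and is known for stabilising mRNAs of growth and stress genes. An RNA immunoprecipitation recovers such mRNAs with the protein. IgG beads recover RNA that sticks to beads, antibody or tube, so a transcript found with IgG can be background alone or can also be bound by HuR, and only a rise over IgG separates these cases.

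Signal was low throughout: the median intensity of an array was 42 to 50, and 1.17% to 5.49% of all probes were detected at p under 0.01. Replicate 2 of the MIR100HG-siRNA HuR IPs stood apart: 2592 probes were detected on it and its highest intensity was 6370, while the other 3 arrays of its group had 563 to 824 probes and a highest intensity of 314 to 334. Results that rest on it are given with and without it, and whether its yield has a technical source was not tested. MIR100HG (probe ILMN_3244176) and ELAVL1 (ILMN_1764873) were detected on 0 of 16 arrays, so depletion could not be checked. Of 14 probes of osteosarcoma and mesenchymal markers, those of LGALS1, CD44 and THBS1 were detected on at least 4 arrays and 11 on none, among them the COL1A1 and SPARC probes. The keratinocyte markers (4 probes) were detected on none, while 12 of 13 blood and 5 of 7 epithelial marker probes were on none. Each group has consecutive IP numbers, so any effect of processing order and that of antibody and siRNA cannot be told apart. The precision is limited by how many arrays there are, and p-values measure the spread between these samples.

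By annotation, 53 members are protein-coding, 6 are transcribed pseudogenes (SLC7A5P2, RRP7BP, ANXA2P2, FAM86HP, CMAHP and LOC100420587), 1 is the 28S ribosomal RNA RNA28SN5 and 1, C10orf12, was not matched. The lists of gene functions held few of them. Splicing and RNA-binding proteins contributed 2 members, SNRPD2 and HNRNPK. The actin and tubulin cytoskeleton list contributed 3: TMSB4X, TUBA1A and MYL12B. DNA repair and telomere genes contributed RTEL1 and MSH3, histones and chromatin H2AZ1, membrane transporters the pseudogene SLC7A5P2, and transcription factors ZBTB18. LAIR1 came from the immune list, which also took in the chromodomain gene CDYL2 by its symbol alone. The lists of oxidative phosphorylation, glycolysis, translation factors, chaperones and proteasome, ubiquitin, small GTPases, DNA replication and G1/S, G2/M, other noncoding RNA and literature targets of HuR held 0 members. In part the rule set this, since it removed EEF1A1 from the translation list, GAPDH and LDHA from glycolysis and ACTB from the HuR targets by name. The lists are also incomplete: PDCD7, a protein of the minor spliceosome, was in none of them. A list with 0 members therefore does not mean that no member has that function. Several members are genes best known from other tissues, such as the olfactory receptors OR10AD1 and OR10J1, the pancreatic chymotrypsinogen CTRB2, the T-cell genes TRAT1 and PRKCQ and the testis gene TEX11. These were picked out after their values were seen.

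Most members were seen again on arrays that the selection did not use. Of the 12 other arrays, the median member was detected on 9 and the member with the fewest on 1. At least 8 of the 12 detected 40 members, and at least 4 detected 58. All 16 arrays detected 8 members: LAIR1, CLUAP1, RTEL1, ARRB1, HNRNPK, DSC3, OR10J1 and CYB561. At a detection p under 0.05 that number was 30.

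The MIR100HG-siRNA HuR IPs detected 35, 57, 44 and 41 of 61 members in replicates 1 to 4, and the control-siRNA HuR IPs 45, 46, 48 and 44. The MIR100HG-siRNA IgG IPs detected 44, 26, 38 and 44. Replicate 2 of the last group had the fewest members and also the fewest detected probes of all, 553. Members seen on all 4 arrays numbered 27, 26 and 18 in these groups. In the MIR100HG-siRNA IgG IPs 8 members were detected on no array: TMSB4X, OAZ1, H2AZ1, CLEC2D, TEX11, AP2S1, CHCHD2 and OR10AD1.

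**Figure D1:**
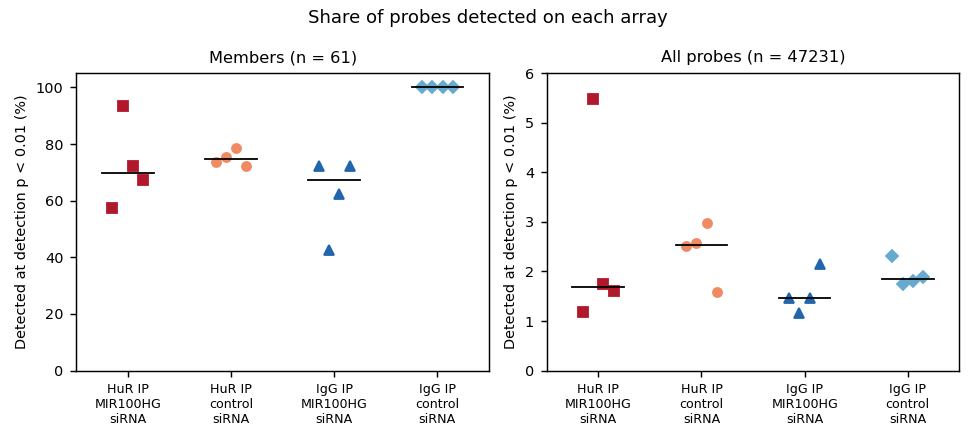
Share of the 61 members (left) and of all 47231 probes (right) with a detection p under 0.01, in percent, on each array, by group; points are arrays and lines are group medians. Members were detected at 42.6% to 93.4% outside the control-siRNA IgG IPs, which are at 100% because they chose the members, while all probes were at 1.17% to 5.49%.

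The members held a steady majority and a minority with strong changes between arrays. Intensity divided by the median of its array moved by less than 1.5-fold over the 16 arrays for 38 members and by more than 2-fold for 19. The steady members had intensities of 44 to 163 on every array, and 41 of all 61 members never reached 100. The plot of all members by array shows the separation.

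**Figure D2:**
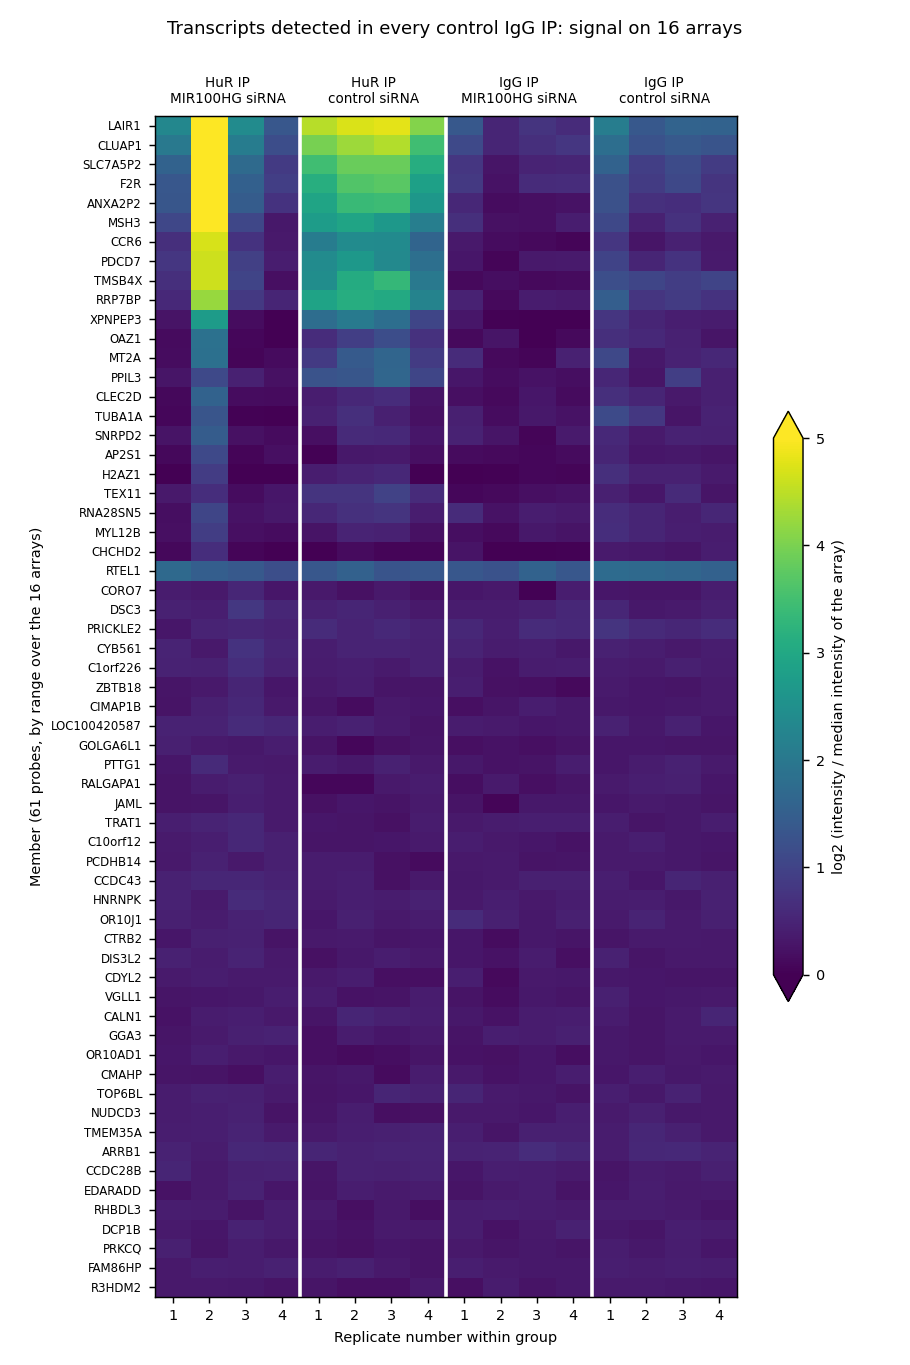
Signal of the 61 members (rows, by range over the arrays) on 16 arrays (columns, 4 per group), as log2 of intensity over the median intensity of the array; the colour scale ends at 5. The rows at the top, from LAIR1 (89.2-fold range) to XPNPEP3 (7.41-fold), are brightest in replicate 2 of the MIR100HG-siRNA HuR IPs, then in control-siRNA HuR IPs. Replicates 1, 3 and 4 with MIR100HG siRNA are not above the IgG IPs in every such row. XPNPEP3 over the array median was 1.20, 1.13 and 0.98 there and 1.30 to 1.70 in control-siRNA IgG IPs. The 38 rows at the bottom each vary by less than 1.5-fold.

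RTEL1 (ILMN_1803162), a helicase that protects telomeres, was a steady member detected on all 16 arrays. Its intensities were 163, 140, 126 and 110 in MIR100HG-siRNA HuR IPs, 118, 138, 113 and 118 in control-siRNA HuR IPs, 113, 101, 131 and 116 in MIR100HG-siRNA IgG IPs and 157, 154, 142 and 135 in control-siRNA IgG IPs. HuR and IgG arrays overlapped with MIR100HG siRNA, and its direction depended on the scaling. Its difference, HuR minus IgG, was -1.40 ± 0.58 on the normalized log2 scale (SE; limma adjusted p = 0.243), -0.52 without replicate 2 of the HuR IPs (0.280) and 0.19 without scaling (0.324). Without scaling the median difference of all probes tested was itself 0.28. ARRB1, a beta-arrestin, read 70, 65, 71 and 70 in MIR100HG-siRNA HuR IPs and 61, 59, 68 and 65 in MIR100HG-siRNA IgG IPs. These ARRB1 values overlapped as well. HNRNPK, an RNA-binding protein of the hnRNP family, read 70, 64, 74 and 70 in MIR100HG-siRNA HuR IPs and 56, 56, 56 and 59 in MIR100HG-siRNA IgG IPs, with no overlap. The median intensity of the array was also higher in those HuR IPs, at 49 ± 1.15 (SD, n = 4) against 43.75 ± 1.26. After normalization HNRNPK differed by 0.30, with a limma adjusted p of 0.745.

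The minority with strong changes included LAIR1, CLUAP1, SLC7A5P2, F2R and ANXA2P2. LAIR1 (ILMN_2389211) encodes an inhibitory collagen receptor of leukocytes. Its intensities were 248, 6370, 257 and 123 in MIR100HG-siRNA HuR IPs, 1014, 1240, 1275 and 770 in control-siRNA HuR IPs, 114, 60, 74 and 69 in MIR100HG-siRNA IgG IPs and 203, 122, 135 and 136 in control-siRNA IgG IPs. With either siRNA, every HuR array was above every IgG array. CLUAP1 (ILMN_2242491), a component of the intraflagellar transport machinery of cilia, read 204, 4773, 207 and 109 in MIR100HG-siRNA HuR IPs, 728, 901, 986 and 506 in control-siRNA HuR IPs, 95, 60, 70 and 78 in MIR100HG-siRNA IgG IPs and 165, 112, 119 and 113 in control-siRNA IgG IPs. SLC7A5P2 (ILMN_2234515) is a pseudogene of the amino acid transporter gene SLC7A5. It read 148, 3720, 158 and 86 in MIR100HG-siRNA HuR IPs, 510, 685, 664 and 401 in control-siRNA HuR IPs, 76, 51, 62 and 64 in MIR100HG-siRNA IgG IPs and 140, 90, 99 and 84 in control-siRNA IgG IPs. Neither CLUAP1 nor SLC7A5P2 overlapped between HuR and IgG arrays of the same siRNA.

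F2R (ILMN_2221507) encodes the thrombin receptor PAR1. It read 128, 3343, 139 and 91 in MIR100HG-siRNA HuR IPs, 406, 588, 604 and 328 in control-siRNA HuR IPs, 78, 50, 67 and 70 in MIR100HG-siRNA IgG IPs and 111, 86, 96 and 77 in control-siRNA IgG IPs. ANXA2P2 (ILMN_3235632), a pseudogene of the membrane-binding protein annexin A2, read 126, 2632, 132 and 80 in MIR100HG-siRNA HuR IPs, 347, 489, 494 and 287 in control-siRNA HuR IPs, 65, 47, 51 and 53 in MIR100HG-siRNA IgG IPs and 111, 76, 71 and 78 in control-siRNA IgG IPs. Both were higher with HuR on every array of a given siRNA. MSH3 (ILMN_2077130), a DNA mismatch repair protein, read 105, 1651, 100 and 60 in MIR100HG-siRNA HuR IPs, 314, 358, 292 and 202 in control-siRNA HuR IPs, 70, 49, 51 and 59 in MIR100HG-siRNA IgG IPs and 99, 65, 74 and 63 in control-siRNA IgG IPs. Its groups overlapped with MIR100HG siRNA, where HuR replicate 4 was below IgG replicate 1.

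CCR6 (ILMN_2387696), the chemokine receptor for CCL20, read 80, 1290, 80 and 61 in MIR100HG-siRNA HuR IPs, 198, 249, 241 and 141 in control-siRNA HuR IPs, 56, 47, 48 and 47 in MIR100HG-siRNA IgG IPs and 81, 57, 62 and 58 in control-siRNA IgG IPs. PDCD7 (ILMN_2148290), a protein of the minor spliceosome, read 86, 1232, 93 and 63 in MIR100HG-siRNA HuR IPs, 244, 298, 235 and 164 in control-siRNA HuR IPs, 54, 44, 56 and 58 in MIR100HG-siRNA IgG IPs and 95, 67, 75 and 59 in control-siRNA IgG IPs. HuR arrays of CCR6 and PDCD7 were all above the IgG arrays of the same siRNA. TMSB4X (ILMN_1683271), the actin monomer-binding thymosin beta 4, read 80, 1237, 98 and 55 in MIR100HG-siRNA HuR IPs, 252, 399, 460 and 188 in control-siRNA HuR IPs, 48, 48, 48 and 50 in MIR100HG-siRNA IgG IPs and 108, 97, 84 and 94 in control-siRNA IgG IPs. RRP7BP (ILMN_3241853), a pseudogene related to the ribosome biogenesis gene RRP7A, read 75, 941, 85 and 69 in MIR100HG-siRNA HuR IPs, 344, 410, 377 and 217 in control-siRNA HuR IPs, 61, 46, 57 and 58 in MIR100HG-siRNA IgG IPs and 133, 80, 82 and 76 in control-siRNA IgG IPs. These 2 members likewise showed no overlap between HuR and IgG arrays of the same siRNA.

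**Figure D3:**
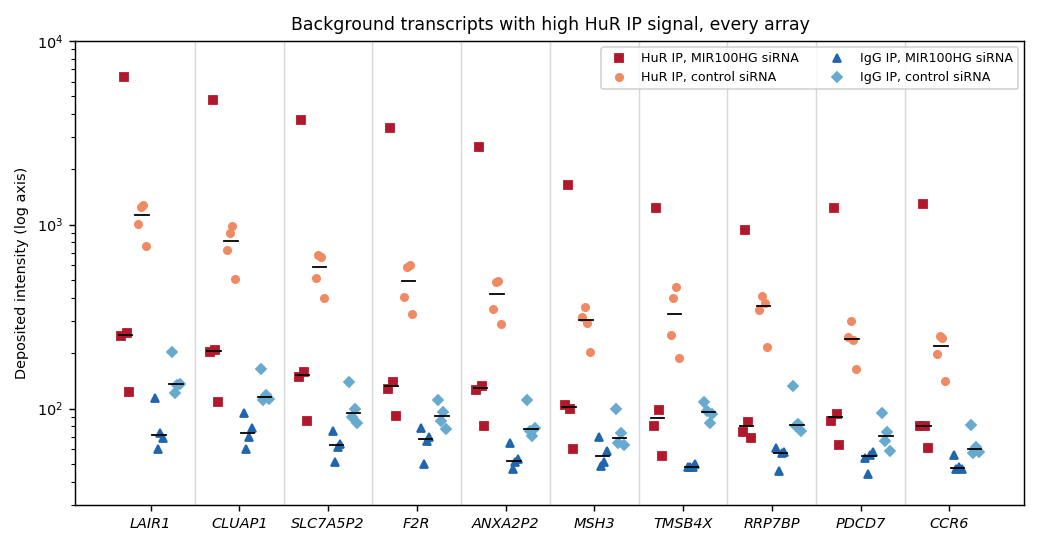
Deposited intensity (log axis) of 10 members on every array, with the 4 groups side by side for each gene; lines are group medians. For each gene the 4 control-siRNA HuR IPs lie above all IgG IPs, and in MIR100HG-siRNA HuR IPs 1 array, replicate 2, lies above and the other 3 below every control-siRNA HuR IP.

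Which background transcripts also rose with HuR was tested in the MIR100HG-siRNA cells, whose 8 arrays took no part in the selection. The fit estimates the spread over all 16 arrays, so its errors also draw on the 4 arrays that chose the members. After quantile normalization, limma called 8 members higher in HuR than in IgG IPs (13.1%) and 2 lower (3.28%), against 3.06% and 1.11% of the 1438 probes that passed the filter on low values. All 61 members passed that filter through the 4 arrays of the selection. With the filter applied to the 12 other arrays 58 members remained. The counts were again 8 and 2, against 44 and 15 of 1138 probes. ANXA2P2 rose by 3.06 ± 0.34 on the log2 scale (SE; limma adjusted p = 2.2e-05). CCR6 rose by 1.93 ± 0.40 (limma adjusted p = 0.0143), SLC7A5P2 by 1.84 ± 0.41 (0.0182) and PDCD7 by 1.75 ± 0.40 (0.0185). RRP7BP rose by 1.35 ± 0.31 (limma adjusted p = 0.0188), LAIR1 by 1.09 ± 0.26 (0.0210) and CLUAP1 by 0.89 ± 0.19 (0.0143). TMSB4X was also called higher (limma adjusted p = 0.0151). It was not well above background on any IgG array here (detection p of 0.05 or more), and no fold is given. ANXA2P2 and CCR6 were each detected at p under 0.01 on 1 of the 4 IgG arrays here. The size of their rise thus also rests on values near background. F2R, at 1.30 ± 0.51 (limma adjusted p = 0.215), and MSH3, at 1.36 ± 0.58 (0.275), did not pass. Over all 61 members the median difference was 0.03, against 0.08 over all probes tested.

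For the lower calls the intensities did not separate the groups. The array median was higher in these HuR IPs, at 49 against 43.75 on average. PRICKLE2, a planar cell polarity protein, read 62, 71, 70 and 67 in HuR IPs and 65, 56, 67 and 67 in IgG IPs with MIR100HG siRNA, which overlap. After quantile normalization it was lower by 1.64 ± 0.36, a log2 difference of -1.64 (limma adjusted p = 0.0179), but the difference was -0.096 without scaling between arrays. RHBDL3, of the rhomboid protease family, read 66, 65, 58 and 63 in HuR IPs and 58, 56, 57 and 58 in IgG IPs, which meet at 58 with HuR on the higher side. Its normalized difference was -0.88 ± 0.24 (limma adjusted p = 0.0487), and -0.0072 without scaling. RHBDL3 passed in 1 of the 16 fits with 1 array left out, and PRICKLE2 in 12.

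Several of these calls changed with the groups in the fit, with replicate 2 or with the scaling. With only the 8 arrays compared in the fit, 1 member was called higher, ANXA2P2 (3.06, limma adjusted p = 0.0190), and 0 lower. Of 1438 probes, 7 were called higher and 1 lower. An unadjusted p under 0.05 was found for 12 members and 127 probes. Without replicate 2 of the MIR100HG-siRNA HuR IPs, 5 members were called higher, against 1.95% of all probes, and 0 lower, against 0.487%. These were ANXA2P2 (2.27, limma adjusted p = 2.6e-04), SLC7A5P2 (1.44, 0.0440), CCR6 (1.18, 0.0448), CLUAP1 (0.77, 0.0255) and the pseudogene LOC100420587 (0.89, 0.0257), which was singled out after its values were seen. LAIR1 (0.95, limma adjusted p = 0.0565), RRP7BP (0.94, 0.0603) and PDCD7 (1.12, 0.0630) then fell short, as did TMSB4X (limma adjusted p = 0.0556). With that array left out and no scaling, 4 members passed (ANXA2P2, CLUAP1, LAIR1 and SLC7A5P2; 0.834% of all probes), and with median centring 5 (those 4 and F2R; 0.904%). ANXA2P2 and CLUAP1 passed in all 16 fits that left out an array, CCR6 in 15, SLC7A5P2 and RRP7BP in 14, TMSB4X in 13, PDCD7 in 12 and LAIR1 in 11. With all arrays kept, 0 members and 0 of 1438 probes passed without scaling, with median centring or with the deposited scores. There 21, 11 and 13 members had an unadjusted p under 0.05, as did 302, 108 and 146 probes.

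On the deposited scale, 36 of 61 members (59%) had every HuR array above every IgG array with MIR100HG siRNA, a share close to the 56.1% of all probes that passed the filter. Without replicate 2 it was 38, against 57.8%. These shares are near the background, and the median intensity of the arrays differed the same way. Divided by the array median, the number was 12 (19.7%), against 11.6% of all probes. LAIR1 and CCR6 were not among these, since HuR replicate 4 was then just below IgG replicate 1. The values were 2.56 against 2.59 for LAIR1 and 1.271 against 1.273 for CCR6.

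With control siRNA the comparison of HuR with IgG uses the arrays of the selection, so its values are described only. Every HuR array was above every IgG array for 13 members (25% of all probes that passed the filter): LAIR1, CLUAP1, SLC7A5P2, F2R, ANXA2P2, MSH3, CCR6, PDCD7, TMSB4X, RRP7BP, XPNPEP3, PPIL3 and TEX11. LAIR1 averaged 1075 ± 234 (SD, n = 4) in HuR IPs and 149 ± 36.6 in IgG IPs, and ANXA2P2 404 ± 104 and 84 ± 18.2. Every HuR array was below every IgG array for 2 members, CHCHD2 and OR10AD1 (1.04% of all probes). CHCHD2, a protein of the mitochondrial intermembrane space, read 44, 52, 48 and 48 in HuR IPs and 60, 59, 55 and 61 in IgG IPs. OR10AD1 read 53, 52, 52 and 56 in HuR IPs and 59, 57, 57 and 57 in IgG IPs. The members' median difference was -0.35 on the normalized log2 scale, against -0.04 over all probes, and -0.018 without scaling. The IgG arrays chose the members, so nothing is read from these shares and medians.

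In HuR IPs the question was whether MIR100HG siRNA altered how much of these transcripts came down, and this comparison shares the MIR100HG-siRNA HuR arrays with the test above. For 16 members, replicates 1, 3 and 4 with MIR100HG siRNA were below all 4 control-siRNA HuR IPs while replicate 2 was above all of them. That is 26.2% of the members, against 23.9% of all probes that passed the filter, and so near the background. They include LAIR1, CLUAP1, SLC7A5P2, F2R, ANXA2P2, MSH3, CCR6, PDCD7, TMSB4X and RRP7BP, with XPNPEP3, OAZ1, MT2A, TUBA1A, CLEC2D and RNA28SN5. LAIR1, for example, averaged 1750 ± 3081 (SD, n = 4) with MIR100HG siRNA and 1075 ± 234 with control siRNA. Its log2 difference was -0.28 ± 0.26 (limma adjusted p = 0.502).

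In this comparison limma called 1 member higher (1.64%) and 4 lower (6.56%), against 0.139% and 9.87% of all probes. XPNPEP3, a mitochondrial aminopeptidase, read 60, 337, 54 and 47 with MIR100HG siRNA and 159, 197, 160 and 95 with control siRNA. It fell by 1.74 ± 0.30 (SE, log2; limma adjusted p = 0.00172) and passed in all 16 fits that left out an array. PPIL3, a cyclophilin-like peptidyl-prolyl isomerase, read 61, 107, 66 and 56 with MIR100HG siRNA and 112, 119, 144 and 95 with control siRNA, where replicate 2 overlapped the controls. PPIL3 fell by 1.24 ± 0.37 (limma adjusted p = 0.0442; 5 of 16 fits), and RRP7BP fell by 1.04 ± 0.31 (0.0439; 4 of 16). OAZ1, the antizyme that limits polyamine synthesis, read 55, 181, 51 and 46 with MIR100HG siRNA and 71, 90, 104 and 75 with control siRNA. OAZ1 fell by 0.99 ± 0.28 (limma adjusted p = 0.0358; 9 of 16 fits). With MIR100HG siRNA, OAZ1 and XPNPEP3 were each detected at p under 0.01 on 1 of 4 HuR arrays, replicate 2. Their size of fall thus rests on values near background. LOC100420587 read 70, 70, 74 and 70 with MIR100HG siRNA and 61, 65, 59 and 55 with control siRNA, with no overlap. It rose by 1.22 ± 0.38 (limma adjusted p = 0.0494; 1 of 16 fits). All 5 passed without replicate 2 as well, with XPNPEP3 at -1.52 (limma adjusted p = 4.8e-06) and LOC100420587 at 1.18 (2.2e-04). With all arrays kept, 0 members passed without scaling, where 0 of all probes were higher and 5 lower. There 13 members and 208 of 1438 probes had an unadjusted p under 0.05, and XPNPEP3 was at -1.47 (limma adjusted p = 0.343). With median centring 0 members were higher and 2 lower, against 1 and 36 probes. XPNPEP3 was then at -1.46 (limma adjusted p = 0.281). The members' median was 0.16, against -0.02 over all probes. Within IgG IPs the siRNA differences were -1.33 for XPNPEP3, -1.24 for PPIL3, -1.67 for RRP7BP, -1.20 for OAZ1 and -0.02 for LOC100420587. The control-siRNA IgG arrays chose the members, so these values are described only. Whether the falls are particular to HuR recovery was not tested.

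Leaving out replicate 2 turned this comparison from few calls to many. Quantile normalization then gave 15 members higher, against 8.62% of all probes, and 9 lower, against 28.7%. Without scaling there were 5 higher (3.82% of all probes) and 19 lower (37.8%), and with median centring 18 higher (18.1%) and 19 lower (34.1%). Without scaling and with median centring the same 19 members were lower, among them LAIR1 (-2.67 without scaling, limma adjusted p = 5.6e-06), CLUAP1 (-2.48, 4.0e-06), SLC7A5P2 (-2.54, 3.5e-06), F2R (-2.41, 2.5e-06), ANXA2P2 (-2.29, 5.6e-06), TMSB4X (-2.79, 2.1e-06), RRP7BP (-2.86, 5.9e-07), MT2A, TUBA1A and H2AZ1. With quantile normalization and that array left out, LAIR1 differed by -0.51 (limma adjusted p = 0.133) and CLUAP1 by -0.17 (0.413). In intensity, 14 members (23%) were higher on every MIR100HG-siRNA array (18.7% of all probes) and 0 lower with all arrays. Without replicate 2, which was set aside after seeing the data, 18 were higher (21.3% of all probes) and 18 lower (27.1%). The array median averaged 49 with MIR100HG siRNA and 46.25 with control siRNA. With all arrays and intensity divided by the array median, 5 members were higher (8.2%), against 5.7% of all probes. By that measure 0 were lower, against 1.25%.

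Within IgG IPs the siRNA comparison again uses the arrays of the selection and is described only. With MIR100HG siRNA, 26 members (42.6%) were below every control-siRNA IgG array and 0 above, where 19.7% of all probes were below. Over the array median the number was 15 (24.6%), against 10.2%. TMSB4X averaged 48.5 ± 1.00 (SD, n = 4) with MIR100HG siRNA and 95.75 ± 9.88 with control siRNA. H2AZ1, a histone H2A variant, read 40, 43, 47 and 47 with MIR100HG siRNA and 75, 65, 62 and 59 with control siRNA. XPNPEP3 read 54, 43, 40 and 45 with MIR100HG siRNA and 80, 67, 60 and 60 with control siRNA. The control arrays chose the members, so nothing is read from these shares.

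Where a gene had several probes, the signal belonged to the member probe. The array holds 60 other probes for 38 of the 61 members, and 53 of these were detected on no array, 7 on 1 to 3 arrays and 0 on 4 or more. The other LAIR1 probe (ILMN_1768598) and both other RTEL1 probes (ILMN_1709538 and ILMN_1778629) were detected on 0 of 16 arrays, while the member probes were detected on all 16. PPIL3 had the other probe that was seen most often, on 3 arrays. The level of a member is therefore that of a probe, and which transcript it reports was not tested.

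**Figure D4:**
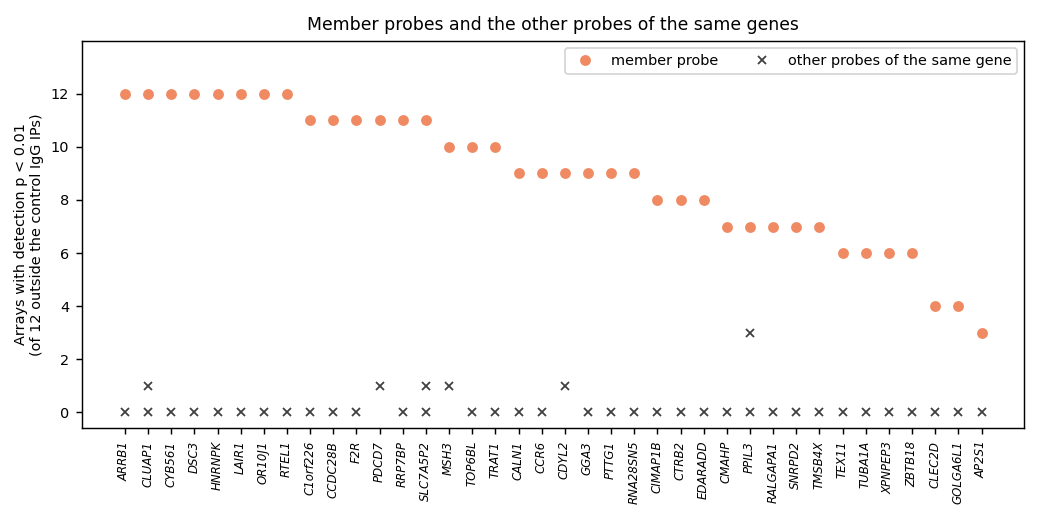
Number of the 12 arrays outside the control-siRNA IgG IPs with a detection p under 0.01, for the member probe (circles) and the other probes of the same gene (crosses, those with equal counts drawn on each other), for the 38 members that have another probe. Member probes were detected on 3 to 12 arrays and the others on 0 to 3.

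Pseudogene members can share signal with their parent genes, so their identity is uncertain. Of 3 ANXA2 probes, 1 was detected on 4 arrays, with 61.75 ± 12.5 (SD, n = 4) in MIR100HG-siRNA HuR IPs, 53 ± 2.83 in control-siRNA HuR IPs, 50 ± 3.92 in MIR100HG-siRNA IgG IPs and 57.5 ± 2.38 in control-siRNA IgG IPs, and the other 2 on none. The SLC7A5 probe was detected on 1 array and both RRP7A probes on 0. TMSB10, the paralog of TMSB4X, was detected on 10 arrays, and its intensity was 52.75 ± 5.32 in MIR100HG-siRNA IgG IPs and 74.5 ± 9.33 in control-siRNA IgG IPs. TUBA1A shares its family with TUBA1B, whose probe was detected on 5 arrays.

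Membership depended on the detection threshold. At p under 0.001 the same rule gave 11 members, and at p under 0.05 it gave 257. Just inside the threshold were CTRB2, CCDC28B and TUBA1A, each with a highest detection p of 0.00909 and mean intensities of 58.25, 59.5 and 76 in control-siRNA IgG IPs. Just outside were GAR1, PHF5A and ALOX5, with 0.01039 and means of 60, 60 and 57.25. Of the 61 members, 48 had a mean intensity under 70 there and 13 had 70 or more.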

How the data were processed

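RNA from 16 U2OS immunoprecipitates was measured on Illumina bead arrays after amplification with an oligo-dT primer, per the labels' protocols. Sample titles gave the groups. The deposited intensity of each probe is linear, came from GenomeStudio 2011.1 per the submitters' processing notes, and looks not normalized between arrays. Detection p-values stand beside the intensities, per the file headers. The deposited score in the series' value table resembles a z-score within an array, with no statement of its making in the sources used. Of the score columns, 1 was left unused, since its correlation across probes with the log2 intensity of its array (IgG IP with MIR100HG siRNA, replicate 1) was 0.0066, while the others reached at least 0.997.

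The members and gene lists were chosen with earlier results of these data known. The platform annotation gives 1 gene for 30113 of 47231 probes and several for 8, and 17110 are unnamed here. RefSeq identifiers updated the symbols of 30074 probes and 60 of 61 members.

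The neqc function of limma 3.58.1 under R 4.3.3 corrected background (offset 16, negative controls estimated through detection p-values) and quantile normalized the arrays. All arrays then have 1 distribution, which may mask or produce differences if arrays differ in total signal. The filter kept 1438 probes (3.04%) detected at p under 0.01 on 4 or more arrays, each as its own feature. The limma model had 4 group means and all 16 arrays, with Benjamini-Hochberg adjustment over 1438 probes and a threshold of 0.05. Tests compared HuR with IgG IPs under MIR100HG siRNA, and MIR100HG with control siRNA in HuR IPs. The model was tested on simulated data. Alternatives changed background correction, scaling, values (the scores), filter, probes per gene, weights, trend, the groups fitted and a replicate block, or dropped 1 array. No slide block was fitted, as no slide was given. Pairs of arrays had 8.25% to 11.0% identical intensities, so no array was a copy.

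Genes named were the 10 members with the highest mean on the control-siRNA IgG IPs, up to 8 per direction past the threshold in each test or without overlap in control-siRNA cells, up to 6 detected on all arrays, up to 6 seen on no other array, those next to the threshold, up to 4 per gene list, MIR100HG and ELAVL1. Symbols beginning with LOC were passed over by this rule. Other members named in counts or as examples were chosen after their values were seen. Figures were drawn with matplotlib 3.10.9.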

Additional observations from a re-analysis of the deposited data

Results flagged for a closer look

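Among 29 named members in 4 groups, 116 sets of 4 arrays were checked for an array far from the other 3. If the sets were independent, chance alone would mark about 5.8 (1 in 20). They are not, since the members share the same arrays, so the number is only a rough guide. The check marked 25, and 17 of them were replicate 2 of the MIR100HG-siRNA HuR IPs. On that array the intensity was 6370 for LAIR1, 4773 for CLUAP1, 3720 for SLC7A5P2, 3343 for F2R, 2632 for ANXA2P2, 1651 for MSH3, 1290 for CCR6, 1237 for TMSB4X, 1232 for PDCD7 and 941 for RRP7BP. It was 337 for XPNPEP3, 181 for OAZ1, 138 for SNRPD2, 124 for TUBA1A, 94 for MYL12B and 93 for H2AZ1. The exception in direction was ARRB1, which was low there at 65 against 70 to 71 on the other arrays of the group. ARRB1 was also marked in replicate 1 of the control-siRNA HuR IPs, at 66 against 65 on each other array, a difference of 1 intensity unit.

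In IgG IPs with MIR100HG siRNA, TMSB4X was at 50 in replicate 4 against 48, CCR6 at 56 in replicate 1 against 47 to 48, HNRNPK at 59 in replicate 4 against 56, and CTRB2 at 47 in replicate 2 against 54 to 55. The median intensity of all members was 50 in replicate 2 of that group, against 55 to 56. Replicate 1 of the control-siRNA IgG IPs was high for CLUAP1 (165 against 112 to 119), RRP7BP (133 against 76 to 82) and OR10AD1 (59 against 57). These arrays are among those that chose the members.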

How the results depend on the processing

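Members called higher and lower are given here, with all probes called of 1438 in brackets. For HuR against IgG IPs with MIR100HG siRNA the main fit gave 8 and 2 (44 and 16). No background correction gave 8 and 1 (52 and 17). Without scaling, with median centring or with the deposited scores they were 0 and 0 (0 and 0). With HuR and IgG arrays quantile normalized separately they were 10 and 0 (50 and 0). With no filter they were 1 and 0 (7 and 1 of 47231). Only the groups compared gave 1 and 0 (7 and 1), and an intensity trend 6 and 0 (38 and 5). With the replicate block they were 8 and 1 (45 and 14). Leaving out each array gave 2 to 9 higher and 0 to 3 lower (17 to 73 and 6 to 22). Without array 2 of the MIR100HG-siRNA HuR IPs they were 4 and 0 (12 and 0) without scaling. With median centring they were 5 and 0 (13 and 0). For MIR100HG against control siRNA in HuR IPs the main fit gave 1 and 4 (2 and 142). They were 0 and 0 (0 and 5) without scaling and 0 and 2 (1 and 36) with median centring. Separate quantile normalization of HuR and IgG arrays gave 15 and 6 (188 and 202). The deposited scores gave 0 and 10 (0 and 94). With no filter they were 0 and 1 (2 and 35 of 47231). A filter on 8 arrays gave 0 and 1 (0 and 3 of 469), and 1 probe per gene 0 and 4 (0 and 128 of 1387). Only the groups compared gave 0 and 6 (0 and 88), and array weights 18 and 9 (170 and 446). The replicate block gave 1 and 4 (5 and 136). Leaving out each array gave 0 to 15 higher and 1 to 9 lower (0 to 124 and 64 to 413). Without array 2 they were 5 and 19 (55 and 544) without scaling and 18 and 19 (260 and 491) with median centring. Without that array 18 members had lower intensities without overlap (27.1% of all probes), a count added after seeing the data. The cause of these changes was not tested.

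Same-numbered arrays mostly did not deviate together: of 24 pairs, 4 had a correlation over 0.1 (range -0.16 to 0.27). Such correlations cannot show whether arrays share a culture or lysate. Pairs were taken by the replicate number of the titles. In MIR100HG-siRNA IgG IPs these follow another order than the IP numbers (10, 11, 12 and 9), and pairing by IP order was not tested. The described median of HuR against IgG with control siRNA (-0.35) was -0.15 with no background correction, -0.018 without scaling, -0.19 with median centring, -0.14 with HuR and IgG arrays quantile normalized separately, -0.72 in units of the deposited score and -0.44 to -0.23 leaving out each array. That of MIR100HG against control siRNA in IgG IPs (-0.11) was -0.48 in units of the deposited score. Members detected on all 16 arrays numbered 30 at a detection p under 0.05, and the rule gave 11 members at p under 0.001 and 257 at p under 0.05. Among the 29 named members, no called direction was reversed under the alternatives run. LOC100420587 was not part of that check. Signal near background limits most members: 41 of 61 never reached an intensity of 100.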
